A study of Mus musculus with 46 samples.

Results

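The Cyp4f genes encode cytochrome P450 enzymes of fatty acid and eicosanoid metabolism. The family was taken here as 8 genes, Cyp4f13, Cyp4f14, Cyp4f15, Cyp4f16, Cyp4f17, Cyp4f18, Cyp4f39 and Cyp4f40, out of 20887 genes with a matched probe on the array. Each member was measured by 1 probe, which was never saturated, and the probe was matched to its gene through its RefSeq accession. The family was picked because the signal of Cyp4f15 in cecum was higher on the fiber diets, so the members were chosen by these readings, and all cecum values of Cyp4f15 are given below as a description, with no test.

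Tissue came from male C57BL/6 mice that started the diets at 12 weeks of age and ate them for 8 weeks. The control group for most comparisons ate a high-fat diet (HFD) with 45% of its energy from fat, and the low-fat diet (LFD) supplied 10%. HFD + inulin was the high-fat diet with 5% corn starch and 5% cellulose by weight replaced by inulin, a plant fructan, and HFD + inul PB received inulin propionate ester and inulin butyrate ester at 5% each instead. RNA from whole tissue was measured on 1-colour Agilent arrays, 22 of cecum (6 HFD, 6 HFD + inulin, 5 HFD + inul PB, 5 LFD) and 24 of liver (6 per diet). The labels number the samples of a diet without stating that each is a separate mouse, so the P values measure the spread between these samples. In whole tissue, fewer cells of a type and less RNA per cell cannot be told apart.

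Enzymes of this family add a hydroxyl group near the methyl end (the omega end) of a fatty acid chain, taking electrons from NADPH through P450 oxidoreductase. Known substrates include leukotriene B4, a lipid that attracts neutrophils and is inactivated by this step, arachidonic acid, and the side chains of vitamins E and K. Omega-hydroxylated fatty acids can be oxidised further to dicarboxylic acids, which peroxisomes shorten. In the RefSeq annotation 7 of the 8 members lie in clusters on chromosome 17, and Cyp4f18 lies on chromosome 8. Along chromosome 17 the order was Cyp4f39, Cyp4f17, Cyp4f16, Cyp4f40, Cyp4f15, Cyp4f14 and Cyp4f13, with 12 other genes between Cyp4f15 and Cyp4f14.

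RefSeq promoter windows (250 bases before to 50 after a transcription start, GRCm38.p6) were found for 7 of the 8 members, with none for Cyp4f17. The letters GATTGG, an inverted CCAAT box followed by a further C on the other strand, were searched on both strands and occurred in 5 of these 7 genes, and in 16.1% of all 32851 windows. Cyp4f14 has 4 windows and Cyp4f40 has 2, so the share of genes is an unlike measure to that of windows. The motif was chosen after the sequences had been read, so the comparison is a description. The 120 bases before the start are printed for 4 members that differed in their diet response below, with GATTGG in capitals. For Cyp4f14, which has several windows, the one with the start farthest upstream is printed, and for Cyp4f40 the one farthest downstream.
Cyp4f15, chr17:32685539-32685658, plus strand: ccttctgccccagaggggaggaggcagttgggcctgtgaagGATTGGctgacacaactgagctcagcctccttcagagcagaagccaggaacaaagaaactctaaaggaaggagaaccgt
Cyp4f14, chr17:32917357-32917476, minus strand: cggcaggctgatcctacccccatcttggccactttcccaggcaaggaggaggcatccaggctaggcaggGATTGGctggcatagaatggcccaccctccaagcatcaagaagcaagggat
Cyp4f13, chr17:32947362-32947481, minus strand: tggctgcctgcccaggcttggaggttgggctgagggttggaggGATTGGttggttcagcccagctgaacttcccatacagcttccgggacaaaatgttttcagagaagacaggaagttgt
Cyp4f40, chr17:32658907-32659026, plus strand: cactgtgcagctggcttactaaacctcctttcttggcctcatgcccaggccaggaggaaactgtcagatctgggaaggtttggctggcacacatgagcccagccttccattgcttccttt
Counted from the start, the capitals begin at position -79 in Cyp4f15, -51 in Cyp4f14 and -77 in Cyp4f13, and Cyp4f40 lacks the letters in both of its windows. Searched in the same way, the hexamers TATAAA (in 13.6% of all windows) and AGGTCA (in 16.3%, the half-site of nuclear receptors such as PPAR alpha) occurred in no window of a member. GTTAAT, the half-site of HNF1 factors (in 7.1% of all windows), occurred once in 1 window each of Cyp4f14 and Cyp4f40.

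One cecum array stood apart and touches several results. HFD replicate 5 had a summed signal of 20.04 (log2) for a list of 10 markers of small intestinal enterocytes, a list chosen after array values had been seen, against 17.54 to 18.41 on the 21 other cecum arrays. Fabp6, the bile acid binding protein of ileal enterocytes, read 18.77 there and 7.49 to 16.13 elsewhere. Apoa1, an apolipoprotein made by enterocytes and hepatocytes, read 14.41 against 2.83 to 11.21. The summed level of 8 hepatocyte markers, of which Apoa1 is 1, was 15.49 there against 12.03 to 13.26 on the other cecum arrays. Alb, also on that list, was not well above background on any cecum array. The same array had the highest goblet cell marker level and the lowest absorptive colonocyte level of its diet. The liver arrays carried all 8 hepatocyte markers well above background and the cecum arrays 9 or 10 of 10 absorptive colonocyte markers. In liver, exocrine pancreas markers summed to 16.49 on LFD replicate 4, 11.51 on HFD + inulin replicate 6 and 11.98 on HFD + inul PB replicate 4. The diet medians of that level were 6.50 to 7.23, and its part in the Cyp4f values was not tested. Values without HFD replicate 5 are given beside the differences it moved most. Cecum arrays detected 48.4% to 55.9% of probes well above background and liver arrays 46.4% to 51.7%.

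In cecum, Cyp4f15 was far higher on both fiber diets than on HFD. Mouse Cyp4f15 hydroxylates leukotriene B4 and arachidonic acid. On HFD its log2 signal was lowest at 5.00, with a median of 7.35 and a highest value of 7.84. On HFD + inulin the lowest, median and highest values were 10.20, 10.50 and 10.89. On HFD + inul PB the 5 arrays read 9.75, 10.07, 10.50, 10.44 and 10.40. None of the HFD arrays reached the lowest fiber diet array. The mean differences from HFD were 3.52 for HFD + inulin, an 11.4-fold difference, and 3.24 for HFD + inul PB, a 9.43-fold difference.

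The low value of 5.00 came from HFD replicate 5, where the probe was not well above background, while it was on the other 21 cecum arrays. Without that array the differences were 3.12 and 2.84. Arrays were hybridised on slides of 8, and each slide held all 4 diets of a single tissue. Within the 3 cecum slides the difference of HFD + inulin from HFD was 3.15, 3.17 and 4.23, and that of HFD + inul PB was 2.55, 3.12 and 4.17.

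LFD arrays read 7.84, 7.62, 9.0, 9.86 and 8.25 for Cyp4f15. They overlapped the HFD arrays at the lower end and reached up to HFD + inul PB at the upper end. The LFD mean of 8.51 ± 0.92 (SD, n = 5) exceeded the HFD mean by 1.52 on the log2 scale, a 2.87-fold difference. The HFD arrays are those that chose the gene, so this difference carries no test either. Without HFD replicate 5 it was 1.12. The difference varied by slide, at 0.38, 1.62 and 2.80.

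From highest to lowest mean, Cyp4f15 in cecum ranked as HFD + inulin (10.51), HFD + inul PB (10.23), LFD (8.51) and HFD (6.99). The means of the 2 fiber diets differed by -0.28 (HFD + inul PB minus HFD + inulin), and their arrays overlapped. The mean of the fiber diets was 1.86 above LFD, with 1 LFD array (9.86) inside the range of HFD + inul PB.

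**Figure D1:**
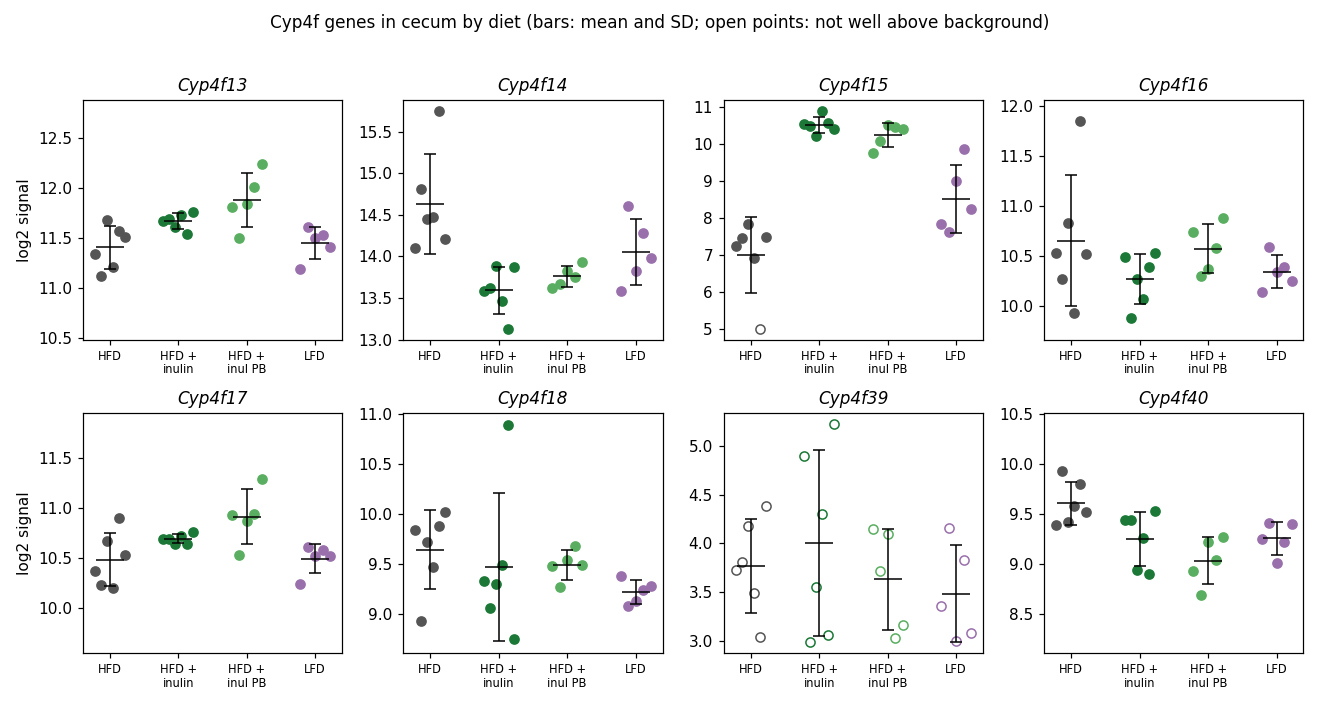
Log2 signal of the 8 Cyp4f genes on each cecum array (points), by diet, with the mean and SD as black bars and open points for spots not well above background; the vertical scales differ between panels. For Cyp4f15 all fiber diet arrays lie at 9.75 or above and all HFD arrays at 7.84 or below, while for Cyp4f14 the order is turned.

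Cyp4f14 was lower in cecum on both fiber diets. Its product is the main enzyme for omega-hydroxylation of vitamin E in mouse liver and also acts on leukotriene B4. On HFD the lowest, median and highest log2 signals were 14.11, 14.46 and 15.75. HFD + inulin gave 13.13, 13.61 and 13.89. The HFD + inul PB arrays read 13.62, 13.66, 13.83, 13.75 and 13.94. All 11 fiber diet arrays lay below all 6 HFD arrays, while LFD (13.59, 14.61, 13.82, 14.28 and 13.99) spanned the gap. Groups failed to overlap for 1.47% of all probes on HFD + inulin and for 7.73% on HFD + inul PB.

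Against HFD, Cyp4f14 fell by 1.04 ± 0.22 (SE) on HFD + inulin (limma adjusted P of 0.0252) and by 0.87 ± 0.24 on HFD + inul PB (limma adjusted P of 0.0289). On the linear scale the level was 0.487 and 0.546 of that on HFD. HFD replicate 5 was the highest array, and without it the differences were -0.81 (limma adjusted P of 0.0208) and -0.65 (limma adjusted P of 0.0345). Within slides the gene was lower in each of 3, by -0.85, -0.78 and -1.48 on HFD + inulin and by -0.81, -0.63 and -1.13 on HFD + inul PB. The LFD difference was -0.58 (limma adjusted P of 0.839) and -0.35 without HFD replicate 5 (limma adjusted P of 0.821).

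Both calls for Cyp4f14 sat close to the threshold. The HFD + inulin call was lost without HFD + inulin replicate 4 (limma adjusted P of 0.065). The HFD + inul PB call was lost without HFD replicate 2 or without any single one of the 5 HFD + inul PB arrays, at limma adjusted P values of 0.0503 to 0.0663, and with 75th percentile scaling (limma adjusted P of 0.0602). With only the diets compared in the fit both calls were lost (limma adjusted P values of 0.15 and 0.0731).

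Goblet cell genes moved in the same direction as Cyp4f14. Of 8 goblet cell markers, 4 were called lower on HFD + inulin (Muc2, Fcgbp, Agr2 and Spdef), where 0.735% of all probes were, and 6 on HFD + inul PB, where 3.51% were, and their summed log2 level was 19.23 to 20.05 on HFD, 18.75 to 19.26 on HFD + inulin and 18.65 to 18.94 on HFD + inul PB. Of 10 absorptive colonocyte markers Car4 and Slc26a3 were called higher on both fiber diets and 0 lower. Guca2b (-0.97 and -0.70), Slc9a3 (-1.44 and -0.95, well above background on 2 of 22 arrays) and Scnn1a (-0.27 and -0.28) had differences in the other direction. By the fold rule of the study (over 1.5-fold with an unadjusted P under 0.01) 2 markers were higher on each fiber diet and 1 was lower on HFD + inulin. By that rule 1.17% and 2.54% of all probes were higher on the fiber diets, and 1.3% were lower on HFD + inulin. The summed level of the list was 19.37 to 19.84 on HFD, 19.89 to 20.12 on HFD + inulin and 19.94 to 20.09 on HFD + inul PB. Of the small intestinal list, 0 of 10 markers were called on either diet, where 1.58% and 7.02% of all probes were. The list medians were -0.68 and -0.62, against 0.01 and 0.00 for all probes, and 5 of the 10 were well above background on at least 11 of 22 arrays. The HFD group includes replicate 5 with its high level of this list. The part of these cell types in the Cyp4f differences was not tested.

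Cyp4f13 and Cyp4f17 were higher, and Cyp4f40 lower, on HFD + inul PB, each by less than 1.5-fold. For Cyp4f13 the HFD arrays ran from 11.12 through a median of 11.43 to 11.68, and the HFD + inul PB arrays read 11.81, 11.50, 11.84, 12.01 and 12.24. All but 1 of these lay above the whole HFD group. The difference was 0.47 ± 0.12 (SE, limma adjusted P of 0.0197), and 0.51 without HFD replicate 5. The call was lost without HFD + inul PB replicate 4 or 5 (limma adjusted P values of 0.0523 and 0.0694) and with only the diets compared in the fit (limma adjusted P of 0.0817). On HFD + inulin it was 0.26 (limma adjusted P of 0.291), with values of 11.54, 11.68 and 11.76 for the lowest, median and highest array.

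For Cyp4f17 HFD gave 10.21, 10.45 and 10.90 as lowest, median and highest values, and HFD + inul PB gave 10.93, 10.53, 10.88, 10.95 and 11.30. The groups overlapped through HFD replicate 5 (10.90) and the HFD + inul PB array at 10.53. The difference was 0.43 ± 0.13 (SE, limma adjusted P of 0.0423) and 0.51 without HFD replicate 5 (limma adjusted P of 0.0125), while HFD + inulin differed by 0.21 (limma adjusted P of 0.461). Leaving out single arrays ended the Cyp4f17 call in 12 of 22 cases, at limma adjusted P values of up to 0.136, the highest without HFD + inul PB replicate 5.

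For Cyp4f40 the HFD arrays ran from 9.39 through 9.55 to 9.93 and the HFD + inul PB arrays read 8.94, 8.69, 9.22, 9.05 and 9.27, with no overlap. It fell by 0.58 ± 0.14 (SE, limma adjusted P of 0.015) on HFD + inul PB. The differences on HFD + inulin (-0.36, limma adjusted P of 0.194) and LFD (-0.35, limma adjusted P of 0.839) pointed the same way, and neither passed the test. Within slides the HFD + inul PB difference was -0.85, -0.28 and -0.51.

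Counted over the 6 members tested against HFD in cecum, which leaves out Cyp4f15 and the undetected Cyp4f39, 1 passed an adjusted P of 0.05 on HFD + inulin (Cyp4f14, lower), when 1.58% of all probes did and 0.735% were lower. On HFD + inul PB 4 of 6 passed, Cyp4f13 and Cyp4f17 higher and Cyp4f14 and Cyp4f40 lower, against 7.02% of all probes, 3.51% higher and 3.51% lower. All 6 members were detected, whereas the shares of all probes, here and for the gene lists, include undetected probes. In a fit of only the 27181 probes detected on every cecum array of a diet, 1803 passed on HFD + inulin. In that fit 5546 passed on HFD + inul PB, so the share called was larger among detected probes on both fiber diets. By the fold rule Cyp4f14 alone was called on each fiber diet, lower on both, against 2.47% of all probes on HFD + inulin (1.3% lower) and 4.69% on HFD + inul PB (2.15% lower). These contrasts are the ones that chose the family through Cyp4f15. On LFD 0 of 6 members were called against HFD by either rule, against 0% of all probes by adjusted P and 0.639% by the fold rule. Direct comparison of HFD + inul PB with HFD + inulin called 0 of 6 members by adjusted P (0.0216% of all probes), and the largest limma difference among the 3 members called on HFD + inul PB alone was 0.22 for Cyp4f17, with a 95% confidence interval of -0.04 to 0.48. Against LFD, the mean of both fiber diets called 0 of 6 members (1.12% of all probes).

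Cyp4f16 and Cyp4f18 showed no called change in cecum. Cyp4f16 differed by -0.38 on HFD + inulin (limma adjusted P of 0.463, and -0.15 without HFD replicate 5) and by -0.08 on HFD + inul PB (limma adjusted P of 0.912). HFD replicate 5 read 11.85 for this gene, with the next HFD array at 10.83, and without that array the second difference turned to 0.16. Cyp4f18, which in mouse neutrophils hydroxylates leukotriene B4, differed by -0.17, -0.15 and -0.42 on HFD + inulin, HFD + inul PB and LFD (limma adjusted P values of 0.785, 0.822 and 0.839). Its HFD + inulin values ran from 8.75 through 9.31 to 10.89, the last on replicate 5. On that array the summed markers of B and plasma cells (15.86), macrophages (14.11) and neutrophils (16.79) were at the top of their diet, and the part of those cells in its Cyp4f18 value was not tested.

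Cyp4f39, the mouse counterpart of the human gene that makes omega-hydroxylated very long fatty acids for skin ceramides, was not well above background on any of the 22 cecum arrays, with readings between 2.99 and 5.22. No diet difference is given for it there.

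**Figure D2:**
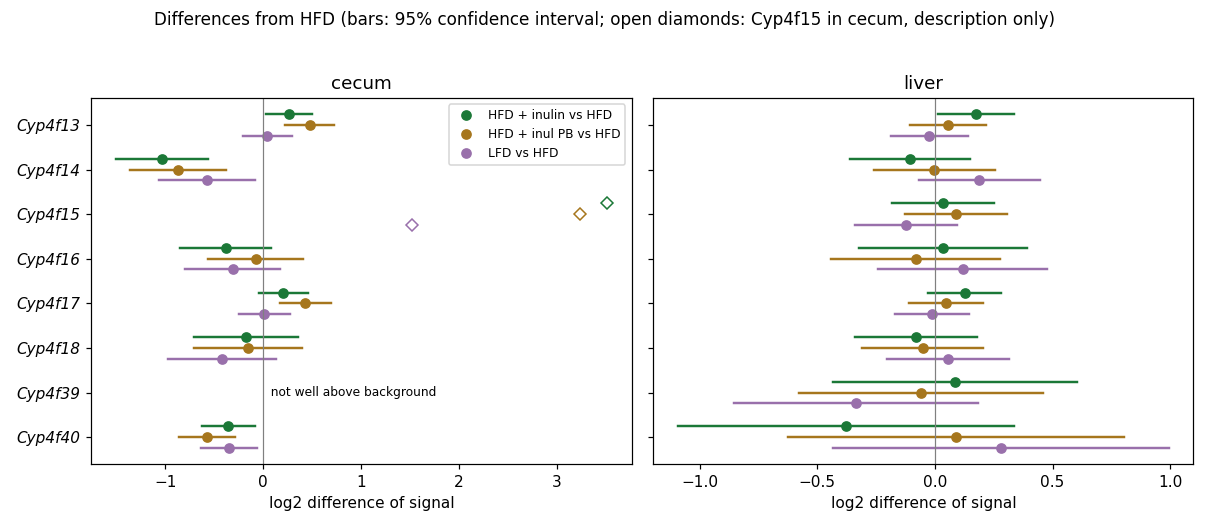
Difference of log2 signal from HFD for each gene on HFD + inulin, HFD + inul PB and LFD in cecum (left) and liver (right), with 95% confidence intervals from limma as bars; open diamonds are the cecum values of Cyp4f15, the gene that chose the family, and carry no interval, and the horizontal scales of the panels differ. In cecum Cyp4f15 stands at 3.52 and 3.24 and Cyp4f14 at -1.04 and -0.87, whereas the liver differences lie between -0.38 and 0.28.

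In liver, 0 of 8 members were called on HFD + inulin, HFD + inul PB or LFD against HFD by an adjusted P of 0.05 in limma, when 0%, 0% and 0.0287% of all probes were, and by the fold rule 0 of 8 were called as well, against 0.399%, 0.289% and 0.717%. The lowest unadjusted limma P among these 24 tests was that of Cyp4f13 on HFD + inulin (0.18, limma P of 0.0364, adjusted P of 1). In all 3 comparisons every member overlapped between diets, as did all but 0.222%, 0.122% and 0.567% of probes. In liver the 2 fiber diets compared with each other, and their mean compared with LFD, also gave 0 of 8 (0% and 0.0593% of all probes).

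Cyp4f15 in liver read 13.30, 13.53 and 13.82 (lowest, median, highest) on HFD, 13.35, 13.57 and 13.80 on HFD + inulin, 13.49, 13.58 and 13.79 with inul PB and 13.19, 13.37 and 13.68 on LFD. Its differences from HFD were 0.03 (95% confidence interval -0.18 to 0.25), 0.09 (-0.13 to 0.30) and -0.12 (-0.34 to 0.09). All intervals exclude a difference of the size seen in cecum.

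Cyp4f14 in liver read 14.50, 14.99 and 15.13 on HFD, 14.53, 14.86 and 14.99 on HFD + inulin, 14.70, 14.94 and 15.07 with inul PB and 14.66, 15.05 and 15.39 on LFD. Its differences were -0.11 (95% confidence interval -0.36 to 0.15), 0.00 (-0.26 to 0.25) and 0.19 (-0.07 to 0.44). Cyp4f13 lay between 11.40 and 11.88 on all 24 liver arrays and Cyp4f17 between 10.69 and 11.13. Cyp4f16 and Cyp4f18 were also well above background on every liver array.

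The remaining members were near the detection limit in liver. Cyp4f39 was well above background on 5 of 6 arrays with HFD, 6 with inulin, 4 with inul PB and 3 with LFD, and Cyp4f40 on 4, 4, 5 and 6. Their intervals were the widest of the family, for example -1.09 to 0.34 for Cyp4f40 on HFD + inulin.

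**Figure D3:**
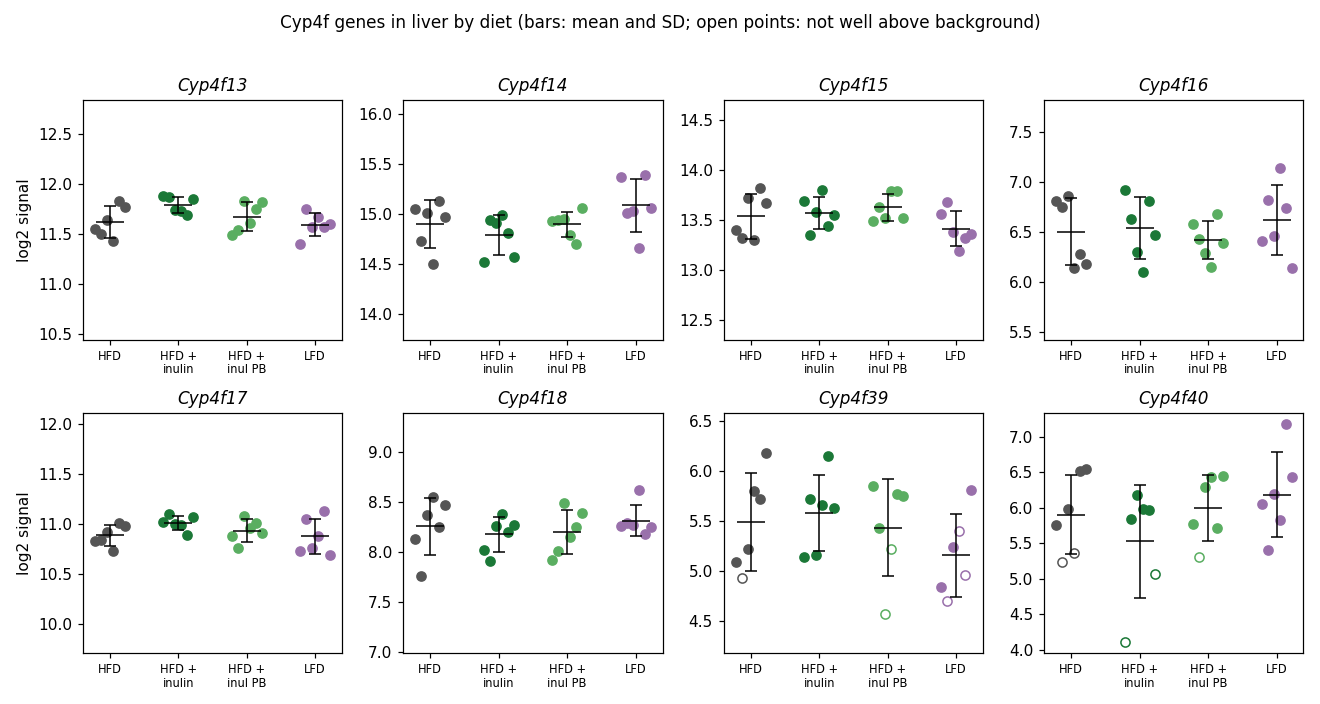
Log2 signal of the 8 Cyp4f genes on each of 24 liver arrays (points), by diet, with mean and SD as black bars and open points for spots not well above background; the vertical scales differ between panels. Diets overlap for every gene, and Cyp4f39 and Cyp4f40 are the genes with open points.

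The change of Cyp4f14 with fiber differed between the tissues. With both tissues normalised together, the mean response to the 2 fiber diets was 0.89 ± 0.23 (SE) lower in cecum than in liver (limma adjusted P of 0.0286), and this was the only 1 of 6 members tested that passed, when 2.1% of all probes did. It missed the threshold without any 1 of 4 arrays, cecum HFD replicates 2 and 5 and liver HFD replicates 2 and 4, at limma adjusted P values of 0.052 to 0.0676. For Cyp4f15 the corresponding difference was 3.28, and 2.89 without cecum HFD replicate 5, given as a description. The labels do not state which cecum and liver arrays came from the same mouse. The fit, also used for the tissue differences on HFD below, treated all 46 arrays as independent.

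On HFD the family was split between tissues. Cyp4f15 differed by -6.90 (cecum minus liver), a 119-fold higher level in liver, and its joint-scale signals ran from 4.90 to 7.63 in cecum and from 13.48 to 14.01 in liver. This difference is given with no test, and on 1 of the 6 cecum arrays, replicate 5, the probe was not well above background. Without that array the difference was -6.51. On HFD + inulin the cecum mean of Cyp4f15 reached 10.32, still below the liver mean of 13.77. Cyp4f16 was 13.1-fold higher in cecum than in liver. Its log2 difference was 3.71, and 3.48 without cecum HFD replicate 5. Cyp4f40 was 9.65-fold higher in cecum, but only 4 of its 6 liver readings were well above background, so the size of this difference is uncertain. Cyp4f18 was 1.94-fold higher in cecum.

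Cyp4f17, Cyp4f13 and Cyp4f14 were 1.72-fold, 1.51-fold and 1.5-fold higher in liver. Cyp4f39, not well above background in cecum, was 4.49-fold higher in liver than a cecum floor defined under the processing, with no test. Its joint-scale cecum readings of up to 4.97 were not well above background, and its HFD liver mean was 5.72. The size of the Cyp4f39 difference is therefore uncertain. The 6 members other than Cyp4f15 and Cyp4f39 passed an adjusted P of 0.05 in limma, the largest being 0.00809 for Cyp4f14, as did 46.9% of all probes. The Cyp4f14 difference was -0.58, and -0.81 without cecum HFD replicate 5. For Cyp4f13 and Cyp4f14 the call depended on the scaling. With the authors' deposited values the differences were -0.16 and -0.31 (limma adjusted P values of 0.217 and 0.17), and with quantile normalization that of Cyp4f14 was -0.27 (limma adjusted P of 0.243). Each slide held a single tissue, so slide and tissue cannot be told apart here.

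**Figure D4:**
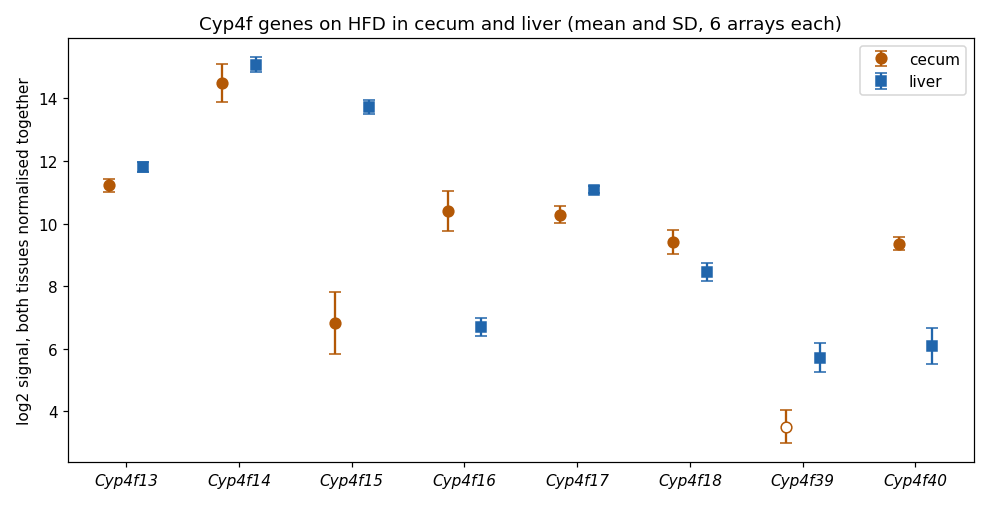
Mean log2 signal and SD of the 8 Cyp4f genes on HFD in cecum (circles) and liver (squares), 6 arrays each, after joint normalization; the open circle marks Cyp4f39, which was not well above background in cecum. Cyp4f15 differs by -6.90 (cecum minus liver), while Cyp4f16 and Cyp4f40 are 3.71 and 3.27 higher there.

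A few members also varied together from array to array once the mean of each diet had been removed. Among 49 pairs examined over both tissues, an analysis added after the values had been seen, 4 passed an adjusted P of 0.05 by both permutation tests, and r was below 0 in 16. The cecum pairs of Cyp4f15 were counted in the adjustment and are descriptions only. Cyp4f13 and Cyp4f17 had a Pearson r of 0.917 and a Spearman rho of 0.947 over 22 cecum arrays (permutation P of 6e-05 and 1e-05, adjusted over the pairs 0.00147 and 0.00049). The last unadjusted value is the smallest the permutations can give. Without the 2 arrays farthest from the median of the gene named first in a pair, r was 0.863, and within the 3 slides it was 0.97, 0.97 and 0.778. In 24 liver arrays r was 0.664 and rho 0.726 (permutation P of 0.00093 and 0.00043, adjusted 0.0152 and 0.00702), with 0.608 without the 2 farthest arrays and 0.872, 0.812 and 0.315 within slides.

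Cyp4f16 and Cyp4f17 followed in cecum with an r of 0.789 and a rho of 0.758 (permutation P of 2e-05 and 0.00018, adjusted 0.00098 and 0.00441), 0.686 without the 2 farthest arrays and 0.672, 0.918 and 0.788 within slides. The other pair that passed was Cyp4f14 and Cyp4f40 in liver, where 5 of 24 Cyp4f40 readings were not well above background and carry no order, so its values are not given. Cyp4f14 and Cyp4f15, which moved apart with diet in cecum, had an r of -0.513 and a rho of -0.289 within diets, given as a description. Without the 2 arrays farthest from the median of Cyp4f14, r was 0.135, so the relation rests on those. HFD replicate 5 is 1 of them, at 15.75 for Cyp4f14 and 5.00 for Cyp4f15. Probe sequences were not used here, so signal shared between similar genes was not tested.

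**Figure D5:**
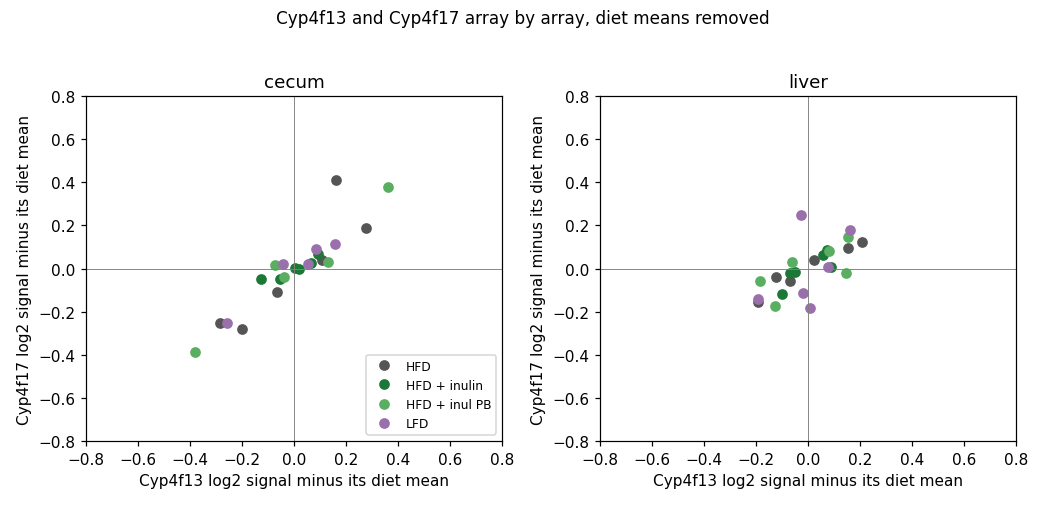
Log2 signal of Cyp4f17 against that of Cyp4f13 on each cecum (left) and liver (right) array after subtraction of the mean of its diet, with colours for the diets. Points follow the diagonal, with r of 0.917 in cecum and 0.664 in liver.

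Among 14132 genes, those whose level followed that of Cyp4f15 most closely over the 22 cecum arrays included Mal (Pearson r of 0.96), Maoa (0.958), Ttll9 (0.936) and Oma1 (0.933). Mal encodes a membrane protein of apical sorting, Maoa a monoamine oxidase of the mitochondrial outer membrane and Oma1 a mitochondrial protease. For Cyp4f14 they were Oxct1 (0.85), which starts ketone body use, Tinag (0.844), Ap1s2 (0.844), Synj2bp (0.843) and Slc7a7 (0.842), a basolateral transporter of cationic amino acids. These correlations include the diet differences and the shared arrays, and are descriptions. The Spearman rho was lower, at 0.824 to 0.876 for the genes named with Cyp4f15 and 0.649 to 0.828 for those named with Cyp4f14. HFD replicate 5 held the highest Cyp4f14 value and the lowest Cyp4f15 value, and correlations without it were not computed.

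Genes around the family in the pathway gave few calls on HFD + inulin in cecum. Of the 11 other Cyp4 genes, of which 4 were well above background on at least 11 of the 22 arrays, 0 passed an adjusted P of 0.05, where 1.58% of all probes did. On HFD + inul PB 1 was higher, Cyp4b1, by 1.48 (limma adjusted P of 0.0115), where 3.51% of all probes were higher. In liver 0 of 11 were called on any diet.

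Among 8 genes of leukotriene B4 synthesis, breakdown and reception, 0 were called on HFD + inulin, whereas 3 were called on HFD + inul PB, when 1.58% and 7.02% of all probes were. Alox5, the lipoxygenase that starts leukotriene synthesis, rose by 0.82 (limma adjusted P of 0.00119), and Ltb4r1, the high-affinity receptor of leukotriene B4, fell by 0.88 (limma adjusted P of 0.00954). Ptgr2, a prostaglandin reductase, rose by 0.27 (limma adjusted P of 0.0377). The list median was -0.23. Of 20 measured genes of other arachidonic acid pathways, 1 was called on HFD + inul PB, a share below the 7.02% of all probes, and it was Hpgds, a prostaglandin D synthase, which fell by 0.88 (limma adjusted P of 0.042).

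Of 12 electron donors and partners of omega-oxidation 0 were called on HFD + inulin, where 1.58% of all probes were. On HFD + inul PB 2 were called higher, where 3.51% of all probes were. These were Cyb5b by 0.36 and Cyb5r3 by 0.28 (limma adjusted P values of 0.023 and 0.0279). They encode an outer mitochondrial cytochrome b5 and the reductase of cytochrome b5. The list median was 0.25.

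Peroxisomal beta-oxidation, which can shorten the dicarboxylic acids that follow omega-hydroxylation, had 6 of 17 genes higher and 0 lower on HFD + inul PB, where 3.51% of all probes were called in each direction, with a median of 0.22 against 0.00 for all probes. They included Acaa1b (0.47, a thiolase), Acot8 (0.43, a thioesterase) and Decr2 (0.39, a reductase for unsaturated chains), with limma adjusted P values of 0.0114, 0.0114 and 0.00689. On HFD + inulin only Acot8 of the 17 was called (0.47, limma adjusted P of 0.0151). In liver 0 of 17 were called on any diet.

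Among 19 genes listed as PPAR alpha and its textbook targets, Rxra, the partner receptor, was higher by 0.62 with inulin and by 0.66 with inul PB (limma adjusted P values of 0.0266 and 0.00777). Creb3l3, a membrane-bound transcription factor of lipid metabolism, fell by 1.35 and 0.96 (limma adjusted P values of 0.00934 and 0.027). Cpt1b, a carnitine palmitoyltransferase, rose by 0.64 on HFD + inul PB (limma adjusted P of 0.0387). On HFD + inulin 1 of the 19 was called higher and 1 lower, where 0.842% and 0.735% of all probes were. On HFD + inul PB 2 were called higher and 1 lower, where 3.51% of all probes were called in each direction. The list medians were -0.02 and 0.09.

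Of 10 genes of acylceramide and barrier lipids, the products in which Cyp4f39 takes part in skin, 2 were called higher on HFD + inul PB, where 3.51% of all probes were. Slc27a4, a fatty acid transporter, rose by 0.69 and Ugcg, which makes glucosylceramide, by 0.48 (limma adjusted P values of 0.00273 and 0.00504). On HFD + inulin 0 were called, where 1.58% of all probes were. LFD gave 0 calls against HFD in cecum in any of these lists, in a comparison where 0% of all probes were called.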

How the data were processed

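The authors deposited the Agilent Feature Extraction output of each array, with spot intensity on a linear scale (processed signal, median signal and local background) and marks for detection, saturation and outliers, which are other values than signals. They also deposited a table of log2 values, made by cyclic loess and averaging of identical oligos. From the scanner files, log2 processed signal of non-control spots was normalised by cyclic loess (span 0.7) within each tissue, or over both for tissue comparisons, and spots of a probe were averaged, giving 55681 probes. A low processed signal is replaced by a small surrogate, so values not well above background carry no order. Diets were compared with limma 3.58.1 in R 4.3.3 over all diets of a tissue, with Benjamini-Hochberg adjustment over all probes. A call was an adjusted P under 0.05, and separately the fold rule of the study (over 1.5-fold, P under 0.01). The cecum floor for Cyp4f39 was, per HFD array, the lowest signal well above background or the gene's own reading where higher. Its HFD liver mean was set against the mean of that floor. Array number limits precision. The study removed 1 cecum HFD + inul PB array and 1 cecum LFD sample before deposit. Scripts were tested on simulated data. Alternatives were 75th percentile scaling, quantile normalization, normexp background (offset 50), the authors' log2 values, a detection filter, slide and replicate blocks, only the diets compared, and leaving out each array.

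Members, gene lists and tests were chosen with earlier results of these data known. All 8 members were named, and of each pathway list up to 4 called genes with the largest difference, with the 5 genes most like Cyp4f15 and Cyp4f14. Some genes that this rule names are not reported here. The marker list of small intestinal enterocytes was added after array values had been seen. Promoter windows came from RefSeq on GRCm38.p6.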

Additional observations from a re-analysis of the deposited data

Results flagged for a closer look

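Among 60 groups of 5 or 6 arrays (members by tissue and diet), 4 held an array far from the rest, and chance gives about 1 in 20 groups. Cyp4f15 in cecum HFD replicate 5 read 5.00, with the nearest HFD array at 6.91, and this array also had the small intestinal marker level of 20.04. Cyp4f17 in cecum LFD replicate 1 read 10.25, with the nearest at 10.52. Cyp4f18 in cecum HFD + inulin replicate 5 read 10.89, with the nearest at 9.48, on the array with the B and plasma cell level of 15.86. Cyp4f18 in liver LFD replicate 4 read 8.61, with the nearest at 8.29, on the array with the exocrine pancreas level of 16.49. The fiber response of Cyp4f14 differed between tissues by -0.89 (cecum minus liver) in a limma interaction test.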

How the results depend on the processing

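Quantile normalization, normexp background, the detection filter and the slide block left every call of a diet difference in place, and so did the authors' log2 values except for Cyp4f17 on HFD + inul PB (limma adjusted P of 0.0572). With 75th percentile scaling, 0 members passed the tissue interaction test (Cyp4f14 at -0.86, limma adjusted P of 0.053) and Cyp4f14 missed the threshold on HFD + inul PB (-0.78, limma adjusted P of 0.0602). With only the diets compared in the fit, so with fewer arrays for the spread, the count in cecum was 0 for HFD + inulin, while it was 1 for HFD + inul PB. The replicate block (no pairing is stated, and same-numbered arrays correlated at r of -0.162 to 0.252 over 31 cecum pairs and of -0.00485 to 0.278 over 36 liver pairs, with 10 of 22 and 18 of 24 arrays closest to their own number) changed no call, with 1 member called for HFD + inulin, as before, and with 4 called for HFD + inul PB.

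Leaving out each array gave 0 to 1 members called on HFD + inulin, 1 to 4 on HFD + inul PB and 0 to 1 in the interaction test. The HFD + inul PB count fell to 2 or 1 without HFD replicate 2 or without HFD + inul PB replicate 1, 3, 4 or 5.

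Small differences that were not called changed sign. Cyp4f14 in liver on HFD + inul PB was 0.028 with 75th percentile scaling, 0.018 with normexp and 0.019 with the authors' values, and ran from -0.083 to 0.044 with single arrays left out. Cyp4f15 in liver on HFD + inulin was -0.0034 with normexp and -0.0029 with the authors' values, and ran from -0.013 to 0.089. Cyp4f16 ran from -0.22 to 0.16 in cecum on HFD + inul PB and from -0.35 to 0.028 in the interaction. The cause was not tested. Cyp4f39 in cecum and part of Cyp4f39, Cyp4f40 and Cyp4f15 readings lay near background, which limits their differences.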

Other observations

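Of the Cyp4f genes outside the 8 members, Cyp4f37 was not well above background on any of 22 cecum or 24 liver arrays. The pseudogene Cyp4f41-ps, next to Cyp4f13 on chromosome 17, was well above background on 14 of 22 cecum arrays and on 0 of 24 liver arrays. In cecum it differed from HFD by 0.04 for inulin, 0.55 for inul PB and 0.81 for LFD, with limma adjusted P values of 0.968, 0.396 and 0.839.

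The adipocyte markers varied widely between cecum arrays, from a summed log2 level of 13.59 to 17.28 on HFD, 10.78 to 16.41 on HFD + inulin, 10.72 to 14.18 on HFD + inul PB and 11.12 to 16.85 on LFD. Of these 6 markers, Fabp4 and Plin1 were called lower on HFD + inul PB, where 3.51% of all probes were. By the fold rule 5 of the 6 were lower there, where 2.15% of all probes were, and the list median was -4.65. On HFD + inulin the list median was -2.67, and 0 of the 6 were called by either rule.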
